A study of Mus musculus with 4 samples.

Results

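Cycling T cells are the small fraction of circulating lymphocytes caught while copying their genome or dividing. Here they were cells with at least 200 genes detected, at least 1 unique molecular identifier (UMI, 1 count per captured transcript) of Cd3d, Cd3e or Cd3g, and UMIs of at least 2 different genes among Mki67, Top2a, Ccnb2, Ccna2, Cdk1, Birc5, Cdca8 and Cenpf. This rule chose 62 of 4858 blood T cells, which themselves were found among 5434 deposited cells. The 62 cells were chosen by measured values of those 8 genes, so the levels of these genes are described and not tested, and other cell cycle genes of the same cells are not independent evidence of cycling. They were compared with the 4565 T cells that held none of the 8 genes, called non-cycling below.

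The blood came from C57BL/6 mice 6 to 8 weeks old, all bearing a subcutaneous tumor grown from MC-38, a mouse colorectal carcinoma cell line, and was drawn on day 18 after tumor challenge. The untreated mouse received no immunotherapy, and the anti-PD-L1 mouse received 150 µg of an antibody that blocks the checkpoint ligand PD-L1 on days 10, 13 and 17. The anti-OX40/CpG mouse, labelled OX40 only in the record, received 150 µg of an agonist antibody to the costimulatory receptor OX40 with 25 µg of the adjuvant CpG on day 7, and the PDOX mouse received both regimens. The record describes 4 blood samples from 4 mice, which was read as 1 mouse per library. An effect of treatment cannot be told apart from a difference between mice or libraries, and no test between treatments was made. Values given for the 4 libraries follow the order untreated, then anti-PD-L1, then anti-OX40/CpG, then PDOX. The T cells were enriched from blood with a negative selection kit, and transcripts were counted from their 3′ ends.

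A T cell that meets its antigen leaves the resting state, passes the restriction point under D-type and E-type cyclins, copies its DNA in S phase, and then condenses and separates its chromosomes in G2 and mitosis. E2F factors switch on the replication genes, whereas the mitotic genes are held silent by the DREAM complex in resting cells and are turned on later with B-MYB and FOXM1. Activated T cells that have divided appear in blood as effector cells, which lose the lymph node homing receptors of naive cells and gain granzymes.

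Of the 8 genes used to choose the cells, Mki67 encodes a coat protein of mitotic chromosomes, Top2a untangles DNA, Ccna2 and Ccnb2 are cyclins that activate the kinase Cdk1, Birc5 and Cdca8 belong to the chromosomal passenger complex, and Cenpf is a kinetochore protein. Summed over the 8 genes, the cycling cells held 36.2, 32.5, 23.8 and 32.8 UMIs per 10000 by library. The 231 T cells with exactly 1 of the genes, just outside the threshold, held 4.15 per 10000, and the 9 cells with exactly 2, just inside it, held 6.95. Of the 62 cells, 13 held all 8 genes, 6 held 7 and 14 held 3. Cells with all 8 genes were deeper than those with exactly 2, with medians of 9714 and 2234 UMIs.

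Each gene was also looked up in the cells that the other 7 genes would choose. Birc5 was then found in 45 of 59 cells (76.3%), against 0.480% of T cells with none of the other 7. Ccnb2 was found in 73.3%, Top2a in 66.1% and Mki67 in 52.6% of the cells so chosen, against 0.436%, 2.31% and 0.610%. The lowest share was that of Cenpf, at 37.1%. These are pooled shares and use the same 8 genes that chose the cells. Cycling cells were also deeper, with a median of 4936 UMIs against 1630 in non-cycling cells. The part of depth in these shares was not tested. By library, Mki67 was found in 2 of 4, 15 of 22, 6 of 13 (46.2%) and 7 of 18 cells (38.9%), and Top2a was found in 9 of 18 under PDOX. Among cells without a Cd3 UMI, 0 of 127 B cells, 0 of 104 monocytes and 0 of 30 neutrophils held 2 or more of the 8 genes, which allows shares of up to 2.36%, 2.88% and 10% at the limit used here for a count of 0, which is 3 counts of the total. These limits lie above the 1.28% found in T cells, so the counts of 0 cannot show a lower share in the other classes. Exactly 1 gene was found in 3.94% of the B cells and 4.81% of the monocytes, next to 4.76% of T cells, so a single gene was not read as cycling. The summed Cd3 genes (T cell rule genes), of which the choice of T cells required at least 1 UMI, are given as a description and are no check of identity. They stood at 15.2, 31.9, 30.8 and 38.7 UMIs per 10000 in cycling cells by library and at 42.1, 42.6, 45.5 and 47.2 in non-cycling cells. The level was lower in the cycling cells of each library, and lowest in the 4 untreated cells.

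The promoters of these genes are shown because most of them share the short element that defines the mitotic gene group. The cell cycle homology region is the site at which the DREAM complex binds G2 and mitosis promoters, and its core was searched as TTTGAA, on both strands like the other motifs, from 250 bases before to 50 bases after each start site. The 5 windows below are RefSeq sequence of the GRCm38.p6 assembly, written 5′ to 3′ on the strand of the gene, with the match in capitals (TTCAAA where it lies on the opposite strand). They lie at chr7:135716460-135716489 (Mki67), chr11:99024195-99024224 (Top2a), chr9:70421533-70421562 (Ccnb2), chr10:69352910-69352939 (Cdk1) and chr1:189688067-189688096 (Cenpf).
Mki67: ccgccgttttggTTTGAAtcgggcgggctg
Top2a: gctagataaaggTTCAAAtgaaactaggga
Ccnb2: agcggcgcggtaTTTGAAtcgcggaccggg
Cdk1: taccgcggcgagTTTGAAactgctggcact
Cenpf: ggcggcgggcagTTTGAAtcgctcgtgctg

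TTTGAA was found in 6 of the 7 promoters with an entry, and in 18.1% of all 27025 promoters of the same length. The Birc5 window held no such letters, and Ccna2 was not analysed here. In the list of G2 and mitosis genes outside the 8, TTTGAA was found in 29 of 42 promoters (69.0%), compared with 4 of 32 (12.5%) in the list of replication and S phase genes. CCAAT, the box bound by NF-Y, was found in 76.2% of the G2 and mitosis promoters and 56.2% of the S phase promoters, against 37.9% of all. The E2F letters ran the other way: GGCGGGAA was found in 7 of 32 S phase promoters (21.9%) and 1 of 42 G2 and mitosis promoters (2.38%), with 2.24% in all promoters. TTTGGCGC and TTTCGCGC were each found in 5 of 32 S phase promoters and in none of the G2 and mitosis promoters, against 0.537% and 0.318% of all. These matches describe the letters in the window only. No binding was measured.

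Cycling cells made up 4 of 698 T cells in the untreated library (0.573%, exact binomial 95% interval 0.156 to 1.46), 22 of 1331 under anti-PD-L1 (1.65%, 1.04 to 2.49), 15 of 1485 under anti-OX40/CpG (1.01%, 0.566 to 1.66) and 21 of 1344 under PDOX (1.56%, 0.970 to 2.38). The untreated share was the lowest and the anti-PD-L1 share the highest, and all 4 intervals overlapped. The intervals cover counting error only, and the difference between mice was not measured. Over the libraries together the share was 1.28% (0.980 to 1.63). With each T cell thinned to 1000 UMIs, which left 31 of 3796 cells called cycling, the shares were 0.377%, 1.20%, 0.508% and 0.995% in the same order of libraries. With cells that carried markers of other cell types left out, they were 0.247%, 0.583%, 0.587% and 0.744%, and PDOX in place of anti-PD-L1 had the highest share.

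**Figure D1:**
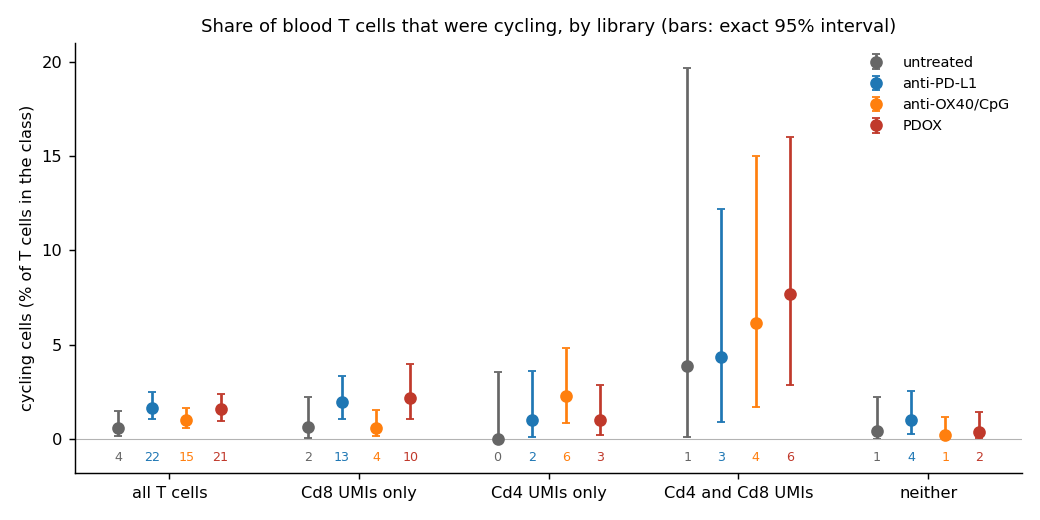
Share of T cells that were cycling in each library, in percent, with exact binomial 95% intervals as bars, for all T cells and for cells with Cd8 UMIs only, Cd4 UMIs only, both or neither, and the number of cycling cells printed under each point. The 4 intervals for all T cells overlap, from 0.573% in the untreated library to 1.65% under anti-PD-L1.

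Lineage was read from UMIs of Cd8a or Cd8b1 and of Cd4, the coreceptors of cytotoxic and helper T cells. As a background, a Cd8b1 UMI was found in 13 of the 127 B cells (10.2%) and a Cd4 UMI in 4 (3.15%), so that single UMIs of a coreceptor in a cell are not proof of lineage. Of the 62 cycling cells, 29 held Cd8 UMIs only, 11 held Cd4 only, 14 held both and 8 held neither. The cycling share of Cd8 T cells was 0.617% (2 of 324) in the untreated library, 1.96% (13 of 663) under anti-PD-L1, 0.594% (4 of 673) under anti-OX40/CpG and 2.19% (10 of 456) under PDOX. Among Cd4 T cells it was 0 of 102 in the untreated library, which allows a share of up to 2.94%, 1.02% (2 of 197) under anti-PD-L1, 2.26% (6 of 266) under anti-OX40/CpG and 0.997% (3 of 301) under PDOX. Only under anti-OX40/CpG was the Cd4 share above the Cd8 share. Across the 4 libraries the Cd8 share exceeded the Cd4 share by 0.274 percentage points on average (SD 1.31), with an exact two-sided permutation p of 0.75 over sign flips, where the smallest p that 4 libraries allow is 1 in 8.

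Cells with UMIs of both coreceptors were more frequent among cycling cells, at 22.6% against 4.47% of non-cycling T cells, whereas cells with neither were fewer, at 12.9% against 34.4%. Depth also differed between the groups, and its part was not tested. The median cycling cell held 4936 UMIs (range 673 to 16046) and the median non-cycling cell 1630, and after thinning to 1000 UMIs the share with both coreceptors was 5.0% against 2.12%. Moreover, in a set of non-cycling T cells matched to the members by total UMIs (5 nearest cells of the same library for each member, 310 in all), 12.3% held both. The matching was incomplete, since the matched cells had a median of 3450 UMIs against 4936 in the members. Such cells can also be doublets, which were not removed. A doublet caller, Scrublet, marked 42 of all cells (0.793%), 0 of the 62 among them, and 0 of the 62 lay in the top 5% of its scores. Of the 62 cells, 14 held more than 2900 genes, above which the study left cells out as outliers. UMIs of at least 2 markers of another blood cell type were found in 40 of the 62 cells (64.5%), against 53.5% of depth-matched and 22.6% of all non-cycling T cells. The part of doublets in the results was not tested.

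The position of each cell in the cycle was read from summed levels of 2 gene lists that hold none of the 8 genes. The S phase list holds replication and nucleotide synthesis genes, and the G2 and mitosis list holds spindle, kinetochore and mitotic regulator genes. Non-cycling cells held a median of 8.65 UMIs per 10000 of the S phase list and 9.05 of the G2 and mitosis list. The cycling cells had a median S phase level of 68.1 in the untreated library, 52.0 under anti-PD-L1, 84.0 under anti-OX40/CpG and 29.9 under PDOX, and a median G2 and mitosis level of 104.6, 57.0, 41.4 and 40.4 in the same order. Both phases were therefore filled, and single cells ranged from 0 to 149 on the S phase list and from 0 to 242 on the G2 and mitosis list. In 7 of the 62 cells both levels were below 20 per 10000, 3 of them under anti-OX40/CpG and 3 under PDOX.

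The phases differed in balance between libraries. The S phase level was the higher of the pair in 11 of 15 cycling cells under anti-OX40/CpG, 9 of 22 under anti-PD-L1, 5 of 21 under PDOX and 1 of 4 in the untreated library. By lineage, it was the higher in 9 of 29 Cd8, 7 of 11 Cd4, 3 of 14 cells with both coreceptors and 7 of 8 cells with neither. Under anti-OX40/CpG it was the higher in 3 of 4 Cd8 cells and 5 of 6 Cd4 cells, and under PDOX in 2 of 10 and 1 of 3. With 1 mouse per library these are descriptions of the cells at hand. Most of the 8 genes that chose the cells act in G2 and mitosis, and how many early S phase cells the choice left out was not measured.

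**Figure D2:**
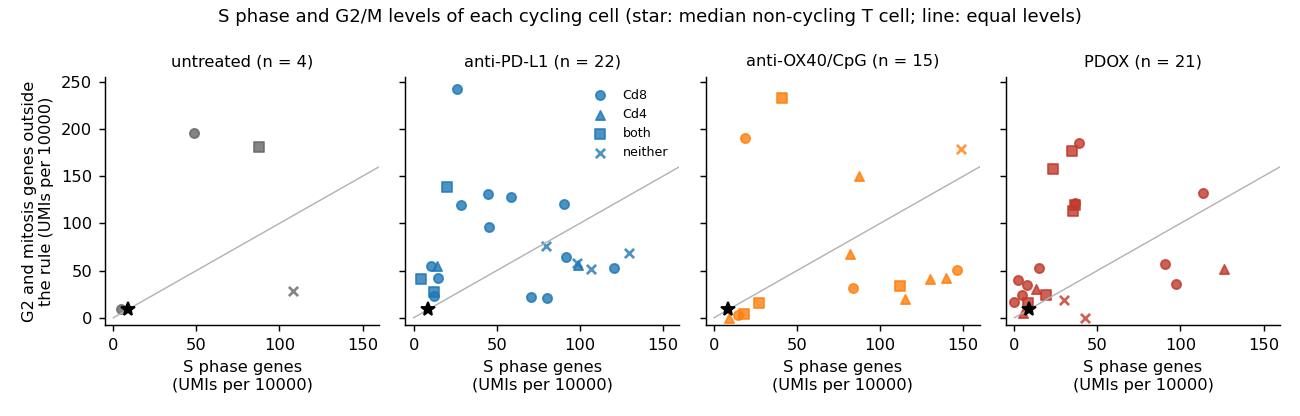
Summed level of the S phase list (x axis) against that of the G2 and mitosis list (y axis) in each of the 62 cycling cells, in UMIs per 10000, with a panel for each library and a symbol for each lineage. The star is the median non-cycling cell and the line marks equal levels. Under anti-OX40/CpG 11 of 15 cells lie on the S phase side and under PDOX 15 of 21 lie on the G2 and mitosis side.

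For the comparison of cycling with non-cycling T cells, UMIs were summed per library and subset, libraries were the replicates, and genes were tested with edgeR's quasi-likelihood test with the library as a block. The untreated library, with 4 cycling cells, was below the minimum of 5 and did not enter, so that 58 cycling and 3893 non-cycling cells of 3 libraries were compared. Of 7906 genes tested, 732 were higher in cycling cells (9.26% of tested) and 631 lower (7.98%) at a Benjamini-Hochberg adjusted p under 0.05. The shares called among all genes are the background for each gene list below. A gene that passed the filter on low counts only through the cycling cells had to differ, and 38 of 40 measured S phase genes and 42 of 50 G2 and mitosis genes passed it. edgeR pooled 1 spread over all genes here, so a single p does not rest on that gene's own spread. DESeq2, which estimates a spread for each gene, called 405 genes higher and 223 lower. Against the depth-matched cells edgeR called 595 of 3275, with 296 higher and 299 lower. These are the background for the list counts against depth-matched cells below.

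The genes of DNA replication were higher almost as a whole. Of 38 tested members of the S phase list 36 rose and none fell, with a median log2 fold of 2.52 against -0.11 over all genes. 2810417H13Rik (ENSMUSG00000040204), which encodes the PCNA-associated factor, stood at 8.49, 9.28, 9.48 and 8.11 UMIs per 10000 in cycling cells, and at 0.0547 or less in non-cycling cells of each. The groups were far apart in every library, with a log2 fold of 8.0 ± 0.23 (SE, 3 libraries). Rrm2, the regulatory subunit of ribonucleotide reductase, stood at 5.36, 3.59, 5.47 and 1.89 per 10000 against 0.0680 or less, a log2 fold of 5.83 ± 0.30. 2810417H13Rik and Rrm2 passed the filter on low counts only through the cycling cells, so their folds are given as a description. Smaller rises were measured for Mcm5 of the replicative helicase (3.31 ± 0.32) and Dut, which removes dUTP (2.53 ± 0.18). Pcna, the sliding clamp, is also used in repair and rose by 1.67 ± 0.20.

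Of 42 tested members of the G2 and mitosis list 41 rose and none fell, with a median log2 fold of 5.06. Ube2c, the ubiquitin-conjugating enzyme of the anaphase-promoting complex, stood at 6.26, 8.56, 2.90 and 8.29 per 10000 in cycling cells and at 0.0547 or less in non-cycling cells (log2 fold 7.24 ± 0.25). Its level under anti-OX40/CpG was the lowest of the 4. Cks1b, a Cdk-binding subunit, rose by 4.98 ± 0.22 and Cenpa, the centromeric histone, by 3.62 ± 0.17. Of the genes with the largest folds over the whole table, Hmmr, a spindle protein, had 34 UMIs in the 58 cycling cells and 1 in the non-cycling cells, and Nek2, a centrosome kinase, had 20 against 0. The transcription factors behind both programs were rare. Foxm1 had 11 UMIs in cycling and 6 in non-cycling cells (log2 fold 4.87 ± 0.93, edgeR adjusted p = 3.39e-06) and E2f1 had 16 and 31 (3.27 ± 0.64, adjusted p = 5.00e-06). Foxm1 and E2f1, like Ube2c, Hmmr and Nek2, passed the filter on low counts only through the cycling cells. They had to differ, and their folds and adjusted p are no separate evidence of a difference.

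Among histones, chromatin proteins and tubulins, 17 of 19 tested genes rose and none fell. Hist1h2ap, a replication-dependent histone, stood at 5.36, 10.5, 31.5 and 1.35 per 10000 in cycling cells, and at 0.0547, 0.0768, 0.387 and 0.0097 in non-cycling cells. In both groups it was highest under anti-OX40/CpG and lowest under PDOX. Its counts are uncertain, because most transcripts of such histones lack the poly(A) tail that the kit captures and histone genes are close copies. Stmn1, which destabilizes microtubules, stood at 29.5, 21.7, 13.2 and 16.5 against 0.60 or less (log2 fold 5.01 ± 0.16). Hmgb2, a chromatin protein, stood at 40.2, 61.4, 51.8 and 60.0 against 3.66, 3.64, 4.46 and 6.23 (3.61 ± 0.13), the groups again without overlap. Tubb5 rose by 1.34 ± 0.13.

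**Figure D3:**
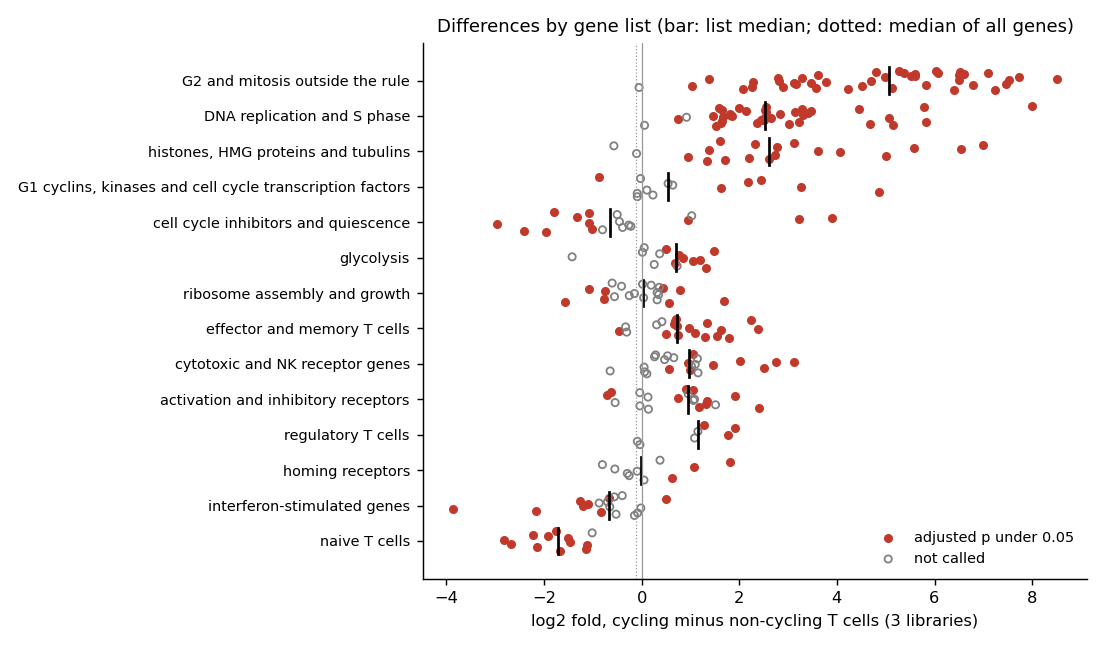
log2 fold between cycling and non-cycling T cells for the tested genes of each list, a point per gene (filled where edgeR's adjusted p was under 0.05), with a bar at the median of the list. S phase genes center on 2.52, G2 and mitosis genes on 5.06 and naive T cell genes on -1.71.

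Genes that act at the entry into the cycle moved less. Of 13 tested G1 cyclins and regulators, 5 rose and 1 fell. Ccne1, which drives entry into S phase, rose (2.44 ± 0.55), whereas Ccnd2, a D-type cyclin induced by growth signals, fell by 0.87 on the log2 scale (SE 0.17). Among 18 inhibitors and quiescence genes 8 fell and 3 rose. Btg1, an antiproliferative gene of resting lymphocytes, stood at 10.7, 6.93, 7.81 and 9.64 per 10000 in cycling cells against 36.5, 26.1, 33.8 and 24.9 in non-cycling cells, with no overlap (log2 fold -1.8 ± 0.14). Tsc22d3, the glucocorticoid-induced leucine zipper gene, was below 1 per 10000 in the cycling cells of each library and at 3.57 to 7.58 in the others (-2.40 ± 0.23). Pik3ip1, an inhibitor of PI3 kinase, was found with 9 UMIs in the 58 cycling cells (-2.97 ± 0.36). Cdkn2c went the other way: this inhibitor of Cdk4 and Cdk6 stood at 2.68, 1.5, 1.34 and 1.71 against 0.0638 to 0.218 (3.23 ± 0.35).

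In metabolism, 8 of 14 glycolysis genes rose and none fell, led by Gapdh (1.48 ± 0.13), whereas against depth-matched cells 3 of 11 rose and none fell. Ldha, at -0.11, and Tpi1, at -0.24, changed sign after thinning, and Pgam1, at -0.10, without cells carrying other types' markers. Of 20 genes of ribosome production 4 rose and 4 fell. Ran, the GTPase of nuclear transport, rose (1.68 ± 0.14) and Npm1, a nucleolar chaperone, fell by 0.78 on the log2 scale (SE 0.13). Of 17 interferon-induced genes 7 fell and 1 rose. Ifi47, an interferon-inducible GTPase, fell by 1.27 on the log2 scale (SE 0.24), lower in 3 of 3 libraries.

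The naive program was low in cycling cells. Of 12 naive T cell genes 11 fell and none rose, with a median log2 fold of -1.71. Lef1, a transcription factor of naive and stem-like T cells, stood at 4.02, 1.5, 0.781 and 0.721 per 10000 in cycling cells and at 9.24, 7.57, 6.97 and 5.29 in non-cycling cells (log2 fold -2.68 ± 0.21). Ccr7, the receptor that guides T cells into lymph nodes, stood at 0.894, 1.11, 0.335 and 0.991 against 6.09, 4.72, 4.37 and 2.81 (-2.22 ± 0.24). Neither gene overlapped between the groups. S1pr1, the receptor for exit from lymph nodes, fell by 1.13 (SE 0.21). Against depth-matched cells the folds were smaller: 6 of 11 naive genes fell, Lef1 by 1.48 and Ccr7 by 1.06, while S1pr1, with -0.31, no longer passed the threshold. With matched cells limited to those with at most 1 UMI of the monocyte gene Lyz2, 11 of 11 naive genes fell.

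Effector genes were high. Lgals1, the galectin that marks activated and effector T cells, stood at 33.5, 79.3, 72.6 and 85.1 per 10000 in cycling cells and at 6.98, 9.62, 12.8 and 26.5 in non-cycling cells (log2 fold 2.39 ± 0.13). All cycling values lay above all non-cycling ones. Of 20 effector and memory genes 15 rose and 1 fell. The gene that fell was Ly6a, an interferon-inducible surface protein (-0.46 ± 0.15, adjusted p = 0.014 in edgeR, lower in 2 of 3 libraries). S100a4 rose by 1.55 ± 0.13 and Vim, the intermediate filament vimentin, by 1.8 ± 0.13. Id2, a regulator of effector differentiation, was not called (0.31 ± 0.15), with 13, 7.25, 5.02 and 11.2 per 10000 in cycling and 2.43, 3.2, 5.87 and 11.8 in non-cycling cells, which overlap. Against the depth-matched cells 4 effector and memory genes rose and 4 fell of 20. Lgals1 still rose there, by 1.25, and S100a4 was at 0.010. The depth-matched cells held the summed monocyte list at 88.3 UMIs per 10000, against 6.52 in cycling cells. The part of these transcripts in the folds was not tested.

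Granzymes rose in the treated libraries. Gzmb, the granzyme that triggers apoptosis in target cells, stood at 0.894, 9.998, 8.70 and 8.38 per 10000 in cycling cells and at 0.237, 0.610, 0.995 and 1.72 in non-cycling cells. It was found in 36 of the 62 cells (58.1%), 23.2% of the depth-matched and 6.55% of all non-cycling cells. As a background, it was found in 0 of 127 B cells (median 1256 UMIs, against 4936 in the cycling cells), which allows a share of up to 2.36%, and in 3 of 104 monocytes (2.88%, median 1919 UMIs). The log2 fold was 3.13 ± 0.16, and 1.8 against depth-matched cells. Gzma stood at 0, 22.3, 15.6 and 29.6 against 0.757, 3.02, 5.18 and 10.03 (2.0 ± 0.13), but without cells carrying markers of other types its log2 fold was 0.74 and no longer passed the threshold. In the depth-matched cells Gzma stood at 0.210, 7.10, 13.8 and 8.83, so the levels under anti-OX40/CpG were close. Gzmk stood at 0, 1.90, 4.57 and 4.06 against 0.00912, 0.115, 0.553 and 1.08 (2.76 ± 0.22). In the 4 untreated cycling cells no Gzma or Gzmk UMI was found, so the granzyme values rest on the treated libraries.

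**Figure D4:**
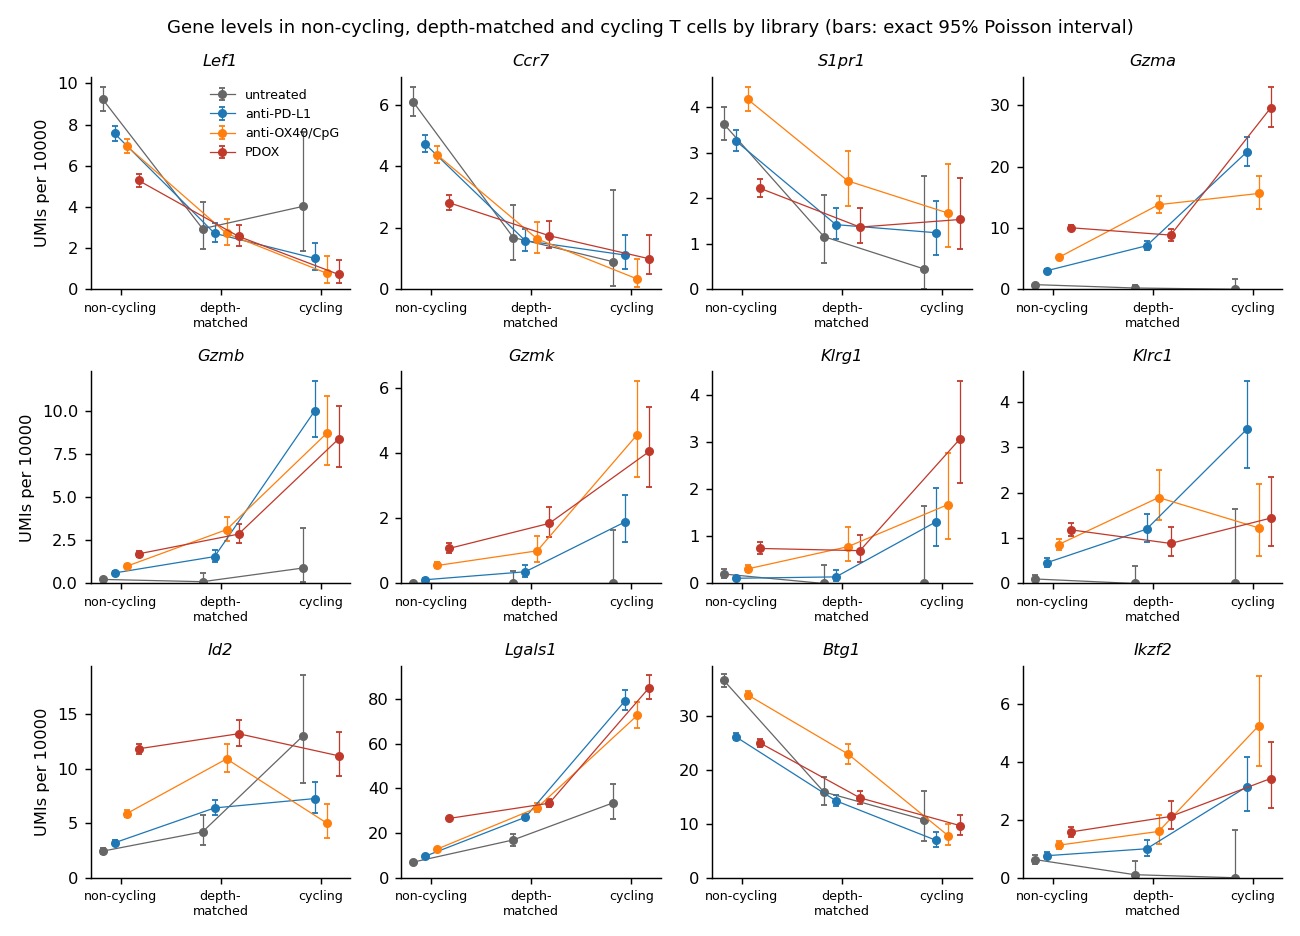
Level of 12 genes in non-cycling, depth-matched and cycling T cells of each library, in UMIs per 10000 with exact Poisson 95% intervals. Lgals1 and Gzmb lie higher and Lef1 and Ccr7 lower in the cycling than in the non-cycling cells of each library, but Lef1 in the 4 untreated cycling cells, at 4.02, lies above the depth-matched cells, at 2.94.

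Cytotoxic genes and receptors on the cell surface gave a mixed picture. Of 22 cytotoxic and NK receptor genes, a list that also holds the granzymes above, 9 rose and none fell. Against depth-matched cells 4 of 17 rose and 1 fell, with a median log2 fold of 0.061. Klrg1, an inhibitory receptor of effector T cells, stood at 0, 1.31, 1.67 and 3.06 per 10000 against 0.201, 0.111, 0.310 and 0.743 (2.50 ± 0.27). Klrc1, which encodes NKG2A, rose by 1.46 ± 0.23, but was at 3.40 per 10000 in anti-PD-L1 cycling cells against 1.23 and 1.44 in the other treated libraries, whose non-cycling cells held 0.859 and 1.18. Its fold lost the call against depth-matched cells (0.60), after thinning (0.81), without cells carrying other types' markers (0.27) and without the anti-PD-L1 library (0.36). Klrk1, which encodes the activating receptor NKG2D, rose in 2 of 3 libraries (0.57 ± 0.20, adjusted p = 0.0337 in edgeR). Without the anti-PD-L1 library its fold was -0.012, and against depth-matched cells it was -0.27.

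Of 19 activation and inhibitory receptor genes 8 rose and 2 fell. Tnfrsf9, which encodes the costimulatory receptor 4-1BB, rose by 2.41 ± 0.57 on 16 UMIs, Ctla4 by 1.91 ± 0.43 on 25, and Pdcd1, which encodes the PD-1 receptor of the blocked ligand, by 1.32 ± 0.49 on 17 (adjusted p = 0.0405 in edgeR). Tnfrsf4, which encodes OX40, rose by 1.17 ± 0.40 on 25 UMIs. Against the depth-matched cells none of 13 tested genes of this list was called, with Pdcd1 at 0.056 and Tnfrsf4 at 0.40. Cd27, a receptor of naive and memory cells, fell by 0.63 (SE 0.18). Among homing receptors 3 of 10 rose, and Cxcr3, the receptor for interferon-induced chemokines, rose by 1.07 ± 0.23 against all non-cycling cells but was at -0.050 against depth-matched cells.

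Of the regulatory T cell list 3 of 7 genes rose, whereas against depth-matched cells 1 of 5 rose, with a median log2 fold of -0.046. Ikzf2, which encodes Helios, stood at 0, 3.14, 5.24 and 3.42 per 10000 in cycling cells and at 0.629, 0.760, 1.12 and 1.58 in non-cycling cells (1.78 ± 0.19). Ikzf2 was found in 24 of the 62 cells (38.7%), 8.98% of non-cycling T cells and 2 of 127 B cells, whose median depths were 4936, 1630 and 1256 UMIs. Foxp3, the factor that defines regulatory T cells, was found in 6 of the 62 cells, 3 of them under anti-PD-L1, and in 0 of 127 B cells, and was not called (1.15 ± 0.62, adjusted p = 0.218 in edgeR). Helios is made by activated as well as by regulatory T cells. The coreceptors Cd4 (-0.19 ± 0.22), Cd8a (0.38 ± 0.16) and Cd8b1 (0.16 ± 0.14) were not called.

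**Figure D5:**
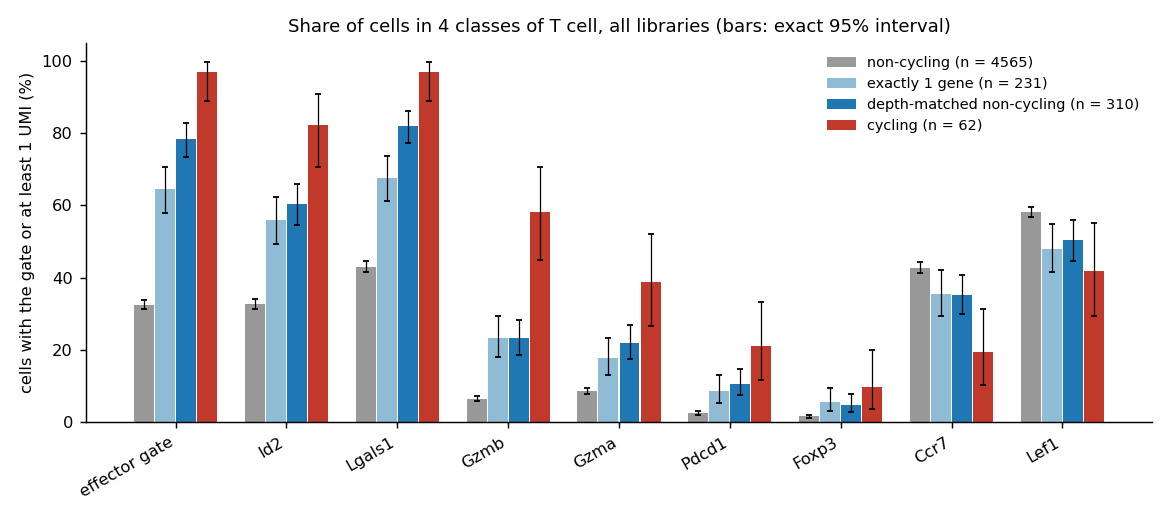
Share of cells inside the effector gate (at least 2 UMI-positive genes of Lgals1, S100a4, Id2, Ahnak and Itgb1) or with a UMI of a gene, in percent with exact binomial 95% intervals as lines, among non-cycling T cells, T cells with exactly 1 of the 8 genes, depth-matched and cycling cells. Gzmb is found in 58.1% of cycling, 23.2% of depth-matched and 6.55% of non-cycling cells.

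An effector gate was set at UMIs of at least 2 of the 5 genes Lgals1, S100a4, Id2, Ahnak and Itgb1. It held 60 of the 62 cycling cells (96.8%), 64.5% of the T cells with exactly 1 of the 8 genes, 78.4% of depth-matched and 32.6% of all non-cycling cells. With every cell thinned to 1000 UMIs it held 48 of 60 cycling cells (80.0%, 67.7 to 89.2) and 27.7% of non-cycling cells (26.2 to 29.1). By library the thinned shares were 2 of 4, 16 of 22, 13 of 14 and 17 of 20 cycling cells, against 11.9%, 14.4%, 27.4% and 51.8% of non-cycling cells. The cycling share was the higher in each library, and the intervals cover counting error over cells only.

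Within the gate, 57 cycling and 1367 non-cycling cells of the same 3 libraries were compared, and of 5649 genes 448 were higher (7.93%) and 283 lower (5.01%). Of 34 tested S phase genes 33 rose, and 38 of 38 G2 and mitosis genes rose. Genes that passed the filter on low counts only through the cycling cells had to differ here too. Both counts are therefore a description and no separate evidence. Of 21 cytotoxic and NK receptor genes 4 rose and 1 fell. Of the granzymes, Gzmb rose by 1.98 ± 0.16, Gzmk by 1.74 ± 0.21 and Gzma by 0.85 ± 0.15, each in 3 of 3 libraries. Klrg1 rose by 1.45 ± 0.24 and Ikzf2 by 1.20 ± 0.18, whereas Klrc1, at 0.33, and Klrk1, at -0.63, were not called. Of 12 naive genes 8 fell, with Lef1 at -1.68 ± 0.22 and Ccr7 at -1.17 ± 0.30. Against the depth-matched cells within the gate 1 of 11 naive genes fell, where 227 of all 3208 genes fell. With the Lyz2 limit 5 of 11 fell, where 198 of all 3117 genes fell. Of 15 effector and memory genes 3 rose and 3 fell. The inhibitors and quiescence list was again mostly lower, with 8 of 15 down and 2 up, and Btg1 at -1.48 ± 0.15.

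Among Cd8 T cells, 23 cycling cells of the anti-PD-L1 and PDOX libraries entered. Of 5361 genes tested 274 were higher (5.11%) and 213 lower (3.97%) with edgeR, and DESeq2 called 168. Gzmb stood at 13.8 per 10000 in the 13 anti-PD-L1 and 11.9 in the 10 PDOX cycling Cd8 cells against 0.914 and 3.35 in the non-cycling ones (2.85 ± 0.32), and Gzma at 18.7 and 58.7 against 4.60 and 15.2 (1.94 ± 0.16). In the 4 cycling Cd8 cells under anti-OX40/CpG, which did not enter, Gzmb was at 26.3 and Gzma at 43.3. The naive genes fell in 10 of 12 cases. Ccr7 fell by 3.47 (SE 0.43).

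Cd4 T cells gave 11 cycling cells over the 3 treated libraries, too few for the minimum of 5 per library in more than 1, so the minimum was dropped for them after the counts were seen. Of 2885 genes tested 60 were higher (2.08%) and 81 lower (2.81%), with 51 called by DESeq2 and 8 of 395 against depth-matched cells, and with 13 called without the anti-OX40/CpG library, 24 without anti-PD-L1 and 207 without PDOX. Rrm2 rose by 6.55 ± 0.60, Stmn1 by 4.52 ± 0.42 and Lgals1 by 2.02 ± 0.38. Rrm2 again passed the filter on low counts only through the cycling cells. Of 11 naive genes 10 fell. Igfbp4 and Dapl1, markers of naive T cells, had 0 UMIs in the 11 cells against 820 and 567 in the 716 non-cycling Cd4 cells. Gzmb had 9 UMIs (2.49 ± 0.64), and Ikzf2 rose by 1.72 ± 0.49 on 41 UMIs, 37 of them from the 6 cells under anti-OX40/CpG. Gzma, at 24.9 per 10000 in the 3 PDOX cells, 2.11 under anti-OX40/CpG and 0 under anti-PD-L1, was not called. Whether a gene's cycling difference itself differed between Cd8 and Cd4 cells was tested on 3951 genes, of which 2 (0.0506%) passed, Cd74 and Id2. Neither passed against depth-matched cells. In simulated data this test recovered 15.5% of genes changed by a log2 fold of 2, so a gene that did not pass may still differ.

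The libraries held 2392650 to 4969885 UMIs as deposited. Transcripts typical of other blood cells were found in the cells chosen as T cells, and their amount differed between the subsets. The choice required only 1 Cd3 UMI. Whether these transcripts came from stray RNA, doublets or other cells with a Cd3 UMI was not tested. Of the monocyte list 5 of 10 genes could be tested; 3 fell and none rose, with Lyz2 at 4.92, 1.18, 0.112 and 0.270 per 10000 in cycling and 27.3, 16.1, 3.24 and 9.54 in non-cycling cells. The summed monocyte list ranged from 4.38 to 26.4 in cycling cells, from 7.77 to 35.9 in non-cycling cells and from 43.7 to 267 in the depth-matched cells, so depth matching brought in cells rich in monocyte transcripts. UMIs of at least 2 monocyte markers were found in 31 of the 62 cells, 44.2% of depth-matched and 12% of non-cycling cells. In the cycling cells most of these UMIs were of Cst3 (113) and Ccr2 (63), a chemokine receptor that effector T cells also carry, with 33 of Lyz2 and 4 of Csf1r, while Ifitm6, F13a1 and Ear2 were at 0. The summed B cell list was at 1.34 to 4.02 in cycling and 2.54 to 13.9 in non-cycling cells, with 3 of 5 tested genes lower. The neutrophil list was at 0 to 0.894 and 0.704 to 7.83, and all basophil markers were at 0 in cycling cells. When the matched cells were restricted to those with at most 1 Lyz2 UMI, 5 of 20 effector and memory genes rose and 3 fell. Of all 3243 genes 588 were called there, 308 higher and 280 lower. In non-cycling cells Krt19, an epithelial keratin, had 292 UMIs in 21 of 4565 cells, and it had 0 in the 62 cycling cells. At so small a share, a count of 0 in 62 cells cannot show a lower share of Krt19 cells. The part of these transcripts in the results was not tested.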

How the data were processed

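The data were single-cell RNA-sequencing libraries of blood T cells, 1 per treatment group, from 4 mice. The authors enriched the cells with a pan T cell isolation kit used in 2 consecutive rounds and removed debris, made 10x Chromium 3′ libraries and counted reads with Cell Ranger on mm10, per the labels and the study's methods. The labels name a different sequencer (NovaSeq) from the methods (HiSeq), which could not be settled. The authors deposited raw counts, that is whole UMIs per gene and cell with no normalization; the gene and barcode lists beside them are identifiers deposited by the authors.

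From the counts, cells with at least 200 genes were kept, not counting 13 mitochondrial, 109 ribosomal and 8 hemoglobin genes, and doublets were not removed. A total of 16 barcodes occurred in 2 libraries, none in a cycling cell. Levels are UMIs per 10000 with exact Poisson intervals, and shares have exact Clopper-Pearson intervals at 95%; both cover counting error only. The limit given for a count of 0 is 3 counts of the total, which lies below the exact bound. Counts summed per library and subset were tested with edgeR 4.0.16 in R 4.3.3 (TMM, filterByExpr, library as a block, at least 5 cells per subset and library, Benjamini-Hochberg adjusted p under 0.05), without the 8 cycling and 3 Cd3 genes, and without the 3 coreceptor or 5 gate genes where these chose the cells. Standard errors are the log2 fold over the root of F. The minimum of cells was dropped for Cd4 cells after the data were seen. DESeq2 1.42.0, thinning, depth matching and other gates were alternatives, and the tests were checked on simulated data. Of 200 genes changed by a log2 fold of 2, the main comparison recovered 53.5% and the effector gate 69.5%. Cd8 cells gave 44.5%, Cd4 cells 6% and the lineage difference 15.5%. At a log2 fold of 1 the main comparison recovered 17.5%, and Cd4 cells and the lineage difference 0%. A gene that was not called may therefore still differ. The cells, the gene lists and the tests were chosen with earlier results of these data known. Named genes are up to 4 called per list with the smallest adjusted p, the largest changes seen the same way in every library, and a preset panel. Libraries were read as 1 mouse each, so p-values describe differences between cells repeated over 3 differently treated mice. A few items are not reported here.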

Additional observations from a re-analysis of the deposited data

Results flagged for a closer look

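The change of a gene between cycling and non-cycling cells was compared between Cd8 and Cd4 T cells by an interaction term in edgeR over the 3 treated libraries, with no minimum of cells, and 2 of 3951 genes passed at an adjusted p under 0.05, with 266 at an unadjusted p under 0.05. For Cd74, the invariant chain of antigen presentation, the difference (Cd8 minus Cd4) was -3.81 on the log2 scale (adjusted p = 0.00531). Cd74 stood at 0.828, 0 and 0.583 UMIs per 10000 in cycling Cd8 cells under anti-PD-L1, then anti-OX40/CpG, then PDOX, against 2.98, 2.24 and 2.22 in non-cycling Cd8 cells, and at 5.44, 2.34 and 0 in cycling Cd4 cells against 1.06, 0.394 and 0.737. It fell in every Cd8 pair and was higher in 2 of 3 Cd4 pairs, on 15 UMIs in the 11 cycling Cd4 cells. Cd74 is also abundant in B cells and monocytes, and the part of their RNA was not tested.

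For Id2, the regulator of effector differentiation, the difference was 2.44 (adjusted p = 0.0197 in edgeR). Id2 stood at 9.53, 6.36 and 12.6 UMIs per 10000 in cycling Cd8 cells against 3.77, 4.98 and 9.88, and at 2.18, 2.34 and 5.87 in cycling Cd4 cells against 2.31, 7.87 and 15.7. It was higher in each Cd8 pair and lower in each Cd4 pair. The Cd4 values rest on 16 UMIs. With DESeq2 the difference of Id2 was 2.22 and was not called (adjusted p = 0.47), and that of Cd74 was called. Without the anti-PD-L1 library neither gene passed in edgeR (Id2 2.25, adjusted p = 0.197, and Cd74 -4.19, adjusted p = 0.0802), nor without the anti-OX40/CpG library (adjusted p = 0.161 and 0.385). Without the PDOX library both passed. Against depth-matched cells edgeR called 0 of 1081 genes, with 59 at an unadjusted p under 0.05.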

How the results depend on the processing

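The limits are few cells and 1 mouse per treatment. The anti-PD-L1 library gave 22 of 62 cycling cells. Each cycling cell was on median deeper than the rest, so in shares of cells a gene may be missed more often in non-cycling cells. Levels and tests used summed UMIs, which ran the other way, with 375984 in the cycling and 7850948 in the non-cycling cells. A gene absent from the summed cycling cells may therefore be undetected there. The untreated cycling cells held the fewest UMIs, 22370. The share of cycling cells moved beyond its interval with 1 gene enough (3.72%, 5.94%, 5.59% and 7.81% in library order), without cells carrying other cell types' markers (0.583% under anti-PD-L1, 0.744% under PDOX) and after thinning (0.508% under anti-OX40/CpG). The cause was not tested. The pooled G2 and mitosis level with at least 3 genes, from UMIs summed over cells, was 91.2 per 10000 under anti-PD-L1 and 90.7 under PDOX. These pooled levels cannot be set against the medians over single cells given in the Results. The pooled levels of all cycling cells are not given, so the size of the change cannot be read here.

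Against 1363 genes called in the main comparison, DESeq2 called 628, thinned cells gave 252 (71 higher, 181 lower, median log2 fold -0.51), cells with at most 2900 genes 704, cells without other types' markers 289, depth-matched cells 595 and those with at most 1 Lyz2 UMI 588, chosen after seeing the data. Fewer cells or genes entered in each of these but DESeq2. Leaving out each library gave 708 to 1074, lowest without anti-PD-L1. In Cd8 cells DESeq2 gave 168 (main 487), and in Cd4 cells DESeq2 gave 51 and depth matching 8 (main 141), with 13 to 207 when each library was left out, lowest without anti-OX40/CpG. Within the effector gate the numbers were 355, 472 and 458 with DESeq2, depth matching and the Lyz2 limit (main 731), and 541 to 782. The lineage difference gave 1 with DESeq2, 0 with depth matching and 1 to 4 by library, against 2. Leaving a library out of the Cd8 fit left 1 library, with no residual spread, and was not run. Other alternatives stayed within 1.5 times.

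Single genes changed sign as follows on the log2 scale. With thinning, Ldha was at -0.11, Tpi1 -0.24, Cst3 0.068, Ahnak -0.28 and Klrk1 -0.43. Without other types' markers, Pgam1 was at -0.10, Batf -0.12, Cd74 1.90 and Cst3 0.24. With depth matching, Cxcr3 was at -0.050, Capg -0.046, Ahnak -0.27 and Klrk1 -0.27, and with the Lyz2 limit Cxcr3 -0.16, Ahnak -0.16, Klrk1 -0.41 and Pdcd1 -0.052. With at most 2900 genes Klrk1 was at -0.34 and Klrc1 -0.059, and Klrk1 ranged from -0.012 without anti-PD-L1 to 1.12 without PDOX. In Cd8 cells with no minimum Klre1 was at 1.52, and in the effector gate with the Lyz2 limit Ms4a6c 0.074.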
